A study of Mus musculus with 48 samples.

Results

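The genes described here are 9 transcription factors that mark regions of the forebrain, namely Emx1, Emx2, Lhx2, Otx1, Npas3, Pax6, Meis2, Dlx1 and Dlx2. They were taken by symbol, and all 9 were found among the 24421 gene symbols of the 6 deposited expression tables. The series holds 48 RNA sequencing libraries that the labels describe as astrocytes of mouse cortex, hippocampus and olfactory bulb, and its title concerns astrocyte morphogenesis and the glial GABAB receptor. The developmental libraries came from postnatal day 1 (P1), P7 and P14, with 3 libraries for each region and age except cortex at P14, which had 4, and the labels give them no genotype or treatment. At P28, libraries labelled Gabbr1 control were set against libraries labelled Gabbr1 cKO, a conditional knockout of the gene of a GABAB receptor subunit. There were 4 control and 4 cKO libraries of cortex, 2 and 4 of hippocampus, and 3 and 3 of olfactory bulb. Tamoxifen is named as the treatment of all P28 hippocampal and olfactory bulb libraries, control and cKO alike, and of 2 control libraries and 1 cKO library of cortex that were deposited in a second round. The Cre driver, the strain and the number of animals behind a library are not given in the sources used here. P-values therefore measure the spread between libraries, which may be technical.

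During embryonic development the forebrain is divided into territories by transcription factors that radial glia, the progenitors of both neurons and astrocytes, express in overlapping fields. Emx1, Emx2, Lhx2, Otx1 and Pax6 belong to the dorsal telencephalon, which forms cortex and hippocampus. Dlx1 and Dlx2 belong to the ventral telencephalon, which forms GABAergic interneurons, including those that travel to the olfactory bulb, where Pax6 and Meis2 are also used in newborn neurons. Some of these genes, among them Lhx2, Emx2, Npas3 and Pax6, stay expressed in glia after birth.

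In the mm10 build with GENCODE M21 annotation, 5 of the members lie on chromosome 2, namely Lhx2 (38339281 to 38369733, plus strand), Dlx1 (71528113 to 71533981, plus), Dlx2 (71543408 to 71546754, minus), Pax6 (105668900 to 105697364, plus) and Meis2 (115863064 to 116065839, minus). The other genes are Emx1 on chromosome 6 (85187438 to 85204462, plus), Otx1 on chromosome 11 (21994764 to 22002897, minus), Npas3 on chromosome 12 (53248677 to 54072175, plus) and Emx2 on chromosome 19 (59458372 to 59465357, plus). Dlx1 and Dlx2 are neighbours transcribed towards each other. Antisense transcripts overlap Emx2 over 264 bases (Emx2os), Pax6 over 1431 bases (Pax6os1) and Dlx1 over its whole length of 5869 bases (Dlx1as). Whether reads were counted by strand is not given in the sources used here, so the reads of these genes and of their antisense partners cannot be told apart in the shared bases.

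RefSeq promoter windows in GRCm38.p6, from 250 bases before to 50 bases after a transcription start, were found for 8 of the 9 members, all except Otx1. Those of Emx2, Dlx1 and Dlx2 are printed because Dlx1 and Dlx2 are neighbours that both fell from P7 to P14 in cortex and in olfactory bulb, and because Emx2 and Dlx2 moved in opposite directions in cortex between P7 and P14. The Emx2 window is chr19:59458440-59458739 on the plus strand, and its antisense overlap ends at base 59458635 inside it. The Dlx1 window is chr2:71529195-71529494 on the plus strand, inside the annotated gene, and the Dlx2 window is chr2:71546705-71547004 on the minus strand. Capitals mark the motif TAATTA, a core sequence bound by many homeodomain proteins, searched on both strands.
Emx2: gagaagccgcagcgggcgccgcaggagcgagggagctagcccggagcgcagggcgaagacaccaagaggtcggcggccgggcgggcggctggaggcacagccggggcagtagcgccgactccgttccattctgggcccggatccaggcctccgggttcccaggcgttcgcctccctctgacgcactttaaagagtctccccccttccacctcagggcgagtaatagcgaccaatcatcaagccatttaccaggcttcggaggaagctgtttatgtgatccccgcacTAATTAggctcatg
Dlx1: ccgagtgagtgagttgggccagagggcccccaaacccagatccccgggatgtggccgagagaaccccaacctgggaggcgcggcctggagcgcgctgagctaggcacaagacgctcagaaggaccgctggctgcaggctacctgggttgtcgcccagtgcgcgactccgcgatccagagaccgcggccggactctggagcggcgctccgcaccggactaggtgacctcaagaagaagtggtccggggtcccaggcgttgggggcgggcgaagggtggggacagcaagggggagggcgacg
Dlx2: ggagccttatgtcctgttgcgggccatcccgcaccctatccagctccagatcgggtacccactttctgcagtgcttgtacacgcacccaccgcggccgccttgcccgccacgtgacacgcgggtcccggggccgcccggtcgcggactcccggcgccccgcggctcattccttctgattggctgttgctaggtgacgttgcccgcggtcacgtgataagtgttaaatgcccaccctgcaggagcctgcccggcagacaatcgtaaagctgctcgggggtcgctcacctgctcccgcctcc
All 3 windows are rich in CG pairs, with 26 in Emx2, 27 in Dlx1 and 29 in Dlx2 against a median of 7 over 32851 windows. The Emx2 window holds 1 TAATTA, which is present in 5.29% of all windows, and neither Dlx window holds it. The motif TGACAG, the core recognised by Meis proteins, is absent from the Dlx windows as well and occurs in 19.2% of all windows.

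The libraries held 1773226 to 15008466 reads in genes. The ribosomal RNA gene Rn45s took 13.7% to 38.0% of them, except in 2 libraries. These were the second cKO library of hippocampus at P28 (0.594%) and the second control library of olfactory bulb at P28 (0.476%). The summed level of 9 astrocyte markers, all detected in every group, was higher at P14 than at P1, with group medians from 2605 RPM (reads per 1000000 gene reads, leaving out Rn45s) in olfactory bulb at P1 to 132396 in cortex at P14. Gfap was near 0 in olfactory bulb at P1, with a mean of 0.87 RPM. The summed level of 4 neuroblast markers went the other way, from a median of 12512 RPM in olfactory bulb at P1 and 3390 in cortex at P1 to 838 and 79.6 at P14. At P28, Gabbr1 was lower in every cKO library than in any control library of its region. In cortex the control libraries stood at 1746, 1930, 1159 and 927 normalized counts and the cKO libraries at 89.8, 96.5, 134 and 211.

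Levels of the members are given on 2 scales. Within a region, levels are the deposited normalized counts, on which ages and genotypes were tested with limma after adding 1 and taking log2. The 3 regions were normalized in separate tables, so levels across regions are given in RPM and carry no test. A fold change on the log2(value + 1) scale understates the change of low genes.

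**Figure D1:**
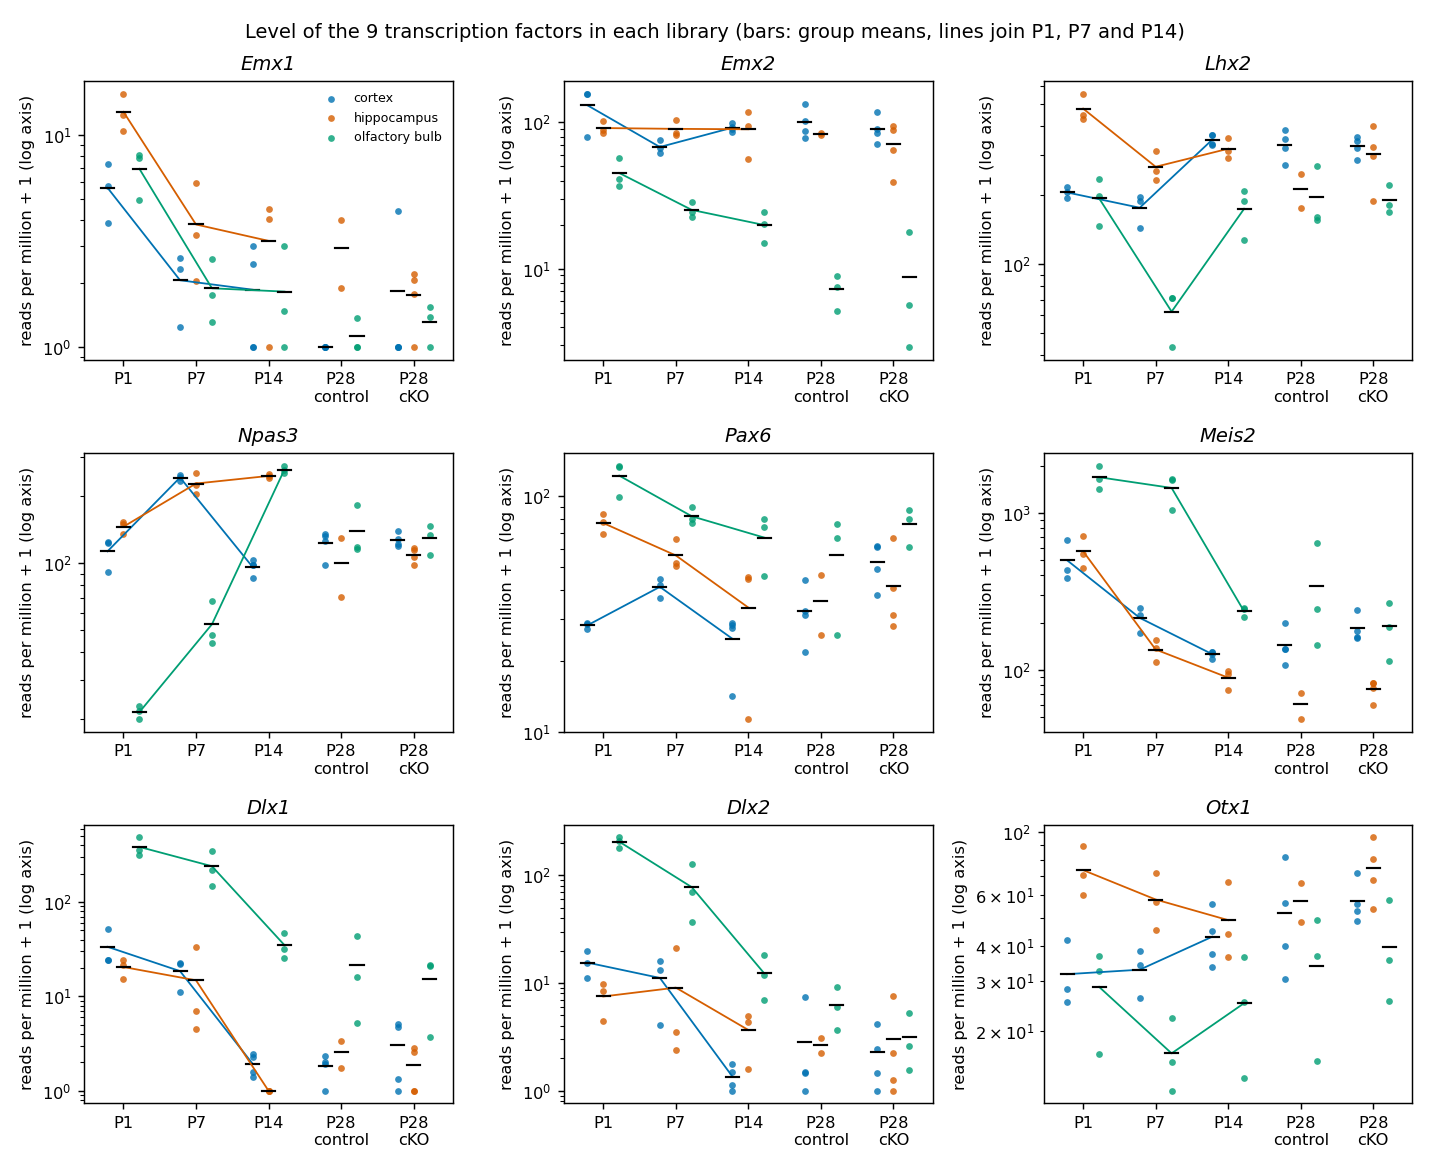
Each panel plots 1 transcription factor, with the group on the x axis and its RPM (+ 1, log axis) on the y axis. Points are libraries coloured by region, bars are group means, and lines join P1, P7 and P14. Dlx1, Dlx2 and Meis2 of olfactory bulb lie above the other regions at P1 and P7 and drop by P14. On this RPM scale, Npas3 of olfactory bulb climbs from below the other regions at P1 to just above hippocampus at P14.

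Genes were compared with each other in RPM per kilobase of exon. At P1 olfactory bulb was led by Meis2 at 140, followed by Dlx2 at 71.3, Dlx1 at 70.9 and Lhx2 at 43.9. In hippocampus at P1 Lhx2 led at 109, with Meis2 at 47.2. Cortex held Lhx2 at 46.6, Emx2 at 43.2 and Meis2 at 41.3, which lie close together. At P14 cortex was led by Lhx2 at 79.3, ahead of Emx2 at 30.3, and Npas3 reached 43.8 in olfactory bulb.

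Counting the members whose libraries did not overlap between regions in RPM, olfactory bulb differed from both other regions in most members, as it did in many other genes. At P1, 4 members were higher and 2 lower in all olfactory bulb libraries than in all cortical ones, where 63.0% of all genes did not overlap. At P7 the counts were 4 and 4 of the 8 members at or above 1 RPM, against 57.9% of all genes, and at P14 they were 5 and 2 of 8, against 37.9%. Against hippocampus, olfactory bulb was higher in 4 and lower in 5 members at P1 (43.5% of all genes), 4 and 4 at P7 (48.8%), and 5 and 3 at P14 (24.2%). Hippocampus was higher than cortex in 5 and lower in 1 at P1 (51.8%), 4 and 1 at P7 (30.2%), and 1 and 1 of 8 at P14 (27.5%). Pax6, Meis2, Dlx1 and Dlx2 were higher in olfactory bulb than in both other regions at each of P1, P7 and P14, and Emx2 was lower at each.

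Emx1, a homeobox gene of dorsal progenitors and excitatory neurons, was near the limit of detection. Its hippocampal libraries stood at 22.1, 36.5 and 27.0 normalized counts at P1, at 6.04, 12.5 and 2.84 at P7 and at 10.7, 0 and 12.5 at P14. All 3 P1 libraries lay above every later one. The log2 difference of P14 from P1 was -2.42 (SE 0.93, limma adjusted p = 0.049), and it did not pass without P14 replicate 2 (-1.20, adjusted p = 0.108), without any of the P1 libraries, or with edgeR (adjusted p = 0.094) or DESeq2 (adjusted p = 0.073). In cortex and olfactory bulb Emx1 fell under the mean of 10 normalized counts required for testing. Its cortical libraries stood at 18.5, 14.1 and 8.47 at P1 and at 5.67, 0, 7.57 and 0 at P14, without overlap. In RPM Emx1 at P1 was 11.9 ± 2.64 (SD, n = 3) in hippocampus, 5.94 in olfactory bulb and 4.65 in cortex, the last 2 of which overlapped.

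Emx2, the paralog of Emx1 that patterns the dorsal and medial cortex, was present in all 48 libraries. In cortex it stood at 228, 458 and 460 normalized counts at P1, at 184, 202 and 228 at P7, and at 342, 360, 320 and 390 at P14. The P7 libraries lay below all P14 libraries, and P1 replicate 1 lay with those of P7. The cortical level fell by 0.83 from P1 to P7 (log2, SE 0.22, limma adjusted p = 0.0093) and rose by 0.78 from P7 to P14 (SE 0.20, adjusted p = 0.0057), which left P14 and P1 0.05 apart (adjusted p = 0.852). The later rise did not pass when RPM were tested (0.45, adjusted p = 0.068), and without P1 replicate 1 the level at P14 was below that at P1 (-0.38, adjusted p = 0.015).

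In hippocampus Emx2 stood at 234, 206 and 205 normalized counts at P1, at 205, 211 and 278 at P7, and at 333, 419 and 197 at P14, with overlap at all ages. The difference of P14 from P1 was 0.49 (log2, limma adjusted p = 0.129), and it passed without P14 replicate 3 (0.80, adjusted p = 0.0065) and with DESeq2 (0.64, adjusted p = 0.033). In olfactory bulb Emx2 stood at 94.6, 130 and 83.8 at P1, at 53.5, 62.9 and 51.0 at P7, and at 69.6, 56.5 and 40.3 at P14. The P1 libraries were above all later ones. Emx2 of olfactory bulb fell by 0.89 from P1 to P14 (log2, SE 0.28, limma adjusted p = 0.018), a call that was lost without P1 replicate 2 (-0.71, adjusted p = 0.098). Across regions Emx2 at P14 was 90.9 ± 5.83 RPM (SD, n = 4) in cortex and 88.6 ± 31.4 (SD, n = 3) in hippocampus, against 18.9 in olfactory bulb, where no library overlapped the other regions.

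Emx2os, the antisense partner that overlaps the start of Emx2, followed a course of its own in cortex. In cortex it stood at 42.6, 43.8 and 41.8 normalized counts at P1, at 86.0, 75.0 and 90.2 at P7, and at 151, 124, 88.0 and 121 at P14. It rose by 1.45 from P1 to P14 (log2, SE 0.18, limma adjusted p = 1.1e-05), over the same libraries in which Emx2 at P14 and at P1 were 0.05 apart. In olfactory bulb Emx2os fell by 2.10 (SE 0.58, adjusted p = 0.010), and Emx2 fell there as well (-0.89). The changes of Emx2os in cortex and olfactory bulb differed by -3.55 on the log2 scale (adjusted p = 2.5e-05). In hippocampus Emx2os averaged 80.1 normalized counts at P1 and 117 at P14, and Emx2 averaged 215 and 316. The P1 and P14 libraries overlapped for both genes. In RPM the means were 33.6 and 32.7 for Emx2os, and 90.4 and 88.6 for Emx2.

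Lhx2, a LIM homeobox gene that specifies cortex and is also known in glia, was high in all regions. In cortex it stood at 567, 603 and 636 normalized counts at P1, at 567, 604 and 440 at P7, and at 1408, 1304, 1248 and 1448 at P14. All P14 libraries were above all earlier ones. It rose by 1.34 from P7 to P14 (log2, SE 0.11, limma adjusted p = 7.0e-07) and by 1.17 from P1 to P14 (adjusted p = 6.9e-07).

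Hippocampal Lhx2 dipped at P7, with 999, 1376 and 1051 normalized counts at P1, 586, 644 and 835 at P7, and 1030, 1267 and 1114 at P14. No P7 library reached a library of the other ages. It fell by 0.73 from P1 to P7 (log2, SE 0.17, limma adjusted p = 0.0094) and rose by 0.73 from P7 to P14 (SE 0.17, adjusted p = 0.0067). The rise was lost when RPM were tested (0.27, adjusted p = 0.163) or with quantile normalization (0.34, adjusted p = 0.097), and on these scales P14 was below P1 (-0.58, adjusted p = 0.0051, and -0.40, adjusted p = 0.035) where the deposited scale gave 0.00 (adjusted p = 0.990). In olfactory bulb Lhx2 stood at 346, 541 and 463 at P1, at 160, 161 and 99.7 at P7, and at 616, 371 and 537 at P14. There it fell by 1.68 from P1 to P7 (SE 0.25, adjusted p = 0.0022) and rose by 1.85 from P7 to P14 (SE 0.25, adjusted p = 0.00018), and the P7 libraries overlapped neither age.

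Otx1, a homeobox gene of deep cortical layers and their progenitors, rose late in cortex. In cortex it stood at 71.0, 120 and 79.8 normalized counts at P1, at 113, 103 and 77.0 at P7, and at 140, 172, 124 and 218 at P14, so that all P14 libraries were above the others. It rose by 0.85 from P1 to P14 (log2, SE 0.23, limma adjusted p = 0.0047) and by 0.72 from P7 to P14 (SE 0.23, adjusted p = 0.017). Neither rise passed when RPM were tested (0.45, adjusted p = 0.080, and 0.38, adjusted p = 0.150). In hippocampus and olfactory bulb no difference of Otx1 between ages passed. At P1 Otx1 was 72.6 RPM in hippocampus, 30.7 in cortex and 27.6 in olfactory bulb, and the last 2 overlapped.

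Npas3, a basic helix-loop-helix PAS factor known from neural progenitors and astrocytes, had a course that differed between the regions. In cortex it stood at 265, 360 and 366 normalized counts at P1, at 740, 765 and 720 at P7, and at 374, 400, 321 and 386 at P14. The P7 libraries were above all others. It rose by 1.18 from P1 to P7 (log2, SE 0.13, limma adjusted p = 1.4e-05) and fell by 1.00 from P7 to P14 (SE 0.12, adjusted p = 2.0e-05). The level at P14 differed from that at P1 by 0.17 (adjusted p = 0.225), and by 0.45 with TMM scaling (adjusted p = 0.0054).

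Hippocampal Npas3 stood at 313, 378 and 350 normalized counts at P1, at 516, 569 and 682 at P7, and at 871, 898 and 869 at P14, with no overlap between ages. It rose by 0.76 from P1 to P7 (log2, SE 0.14, limma adjusted p = 0.0026) and by 1.34 from P1 to P14 (SE 0.14, adjusted p = 1.1e-05). The step from P7 to P14 of 0.59 (adjusted p = 0.0087) was lost when RPM were tested (0.12, adjusted p = 0.468) or with quantile normalization (0.23, adjusted p = 0.243). In olfactory bulb Npas3 stood at 51.6, 47.6 and 44.7 at P1, at 106, 154 and 101 at P7, and at 817, 748 and 746 at P14. It rose at both steps, by 1.29 (SE 0.19, adjusted p = 0.0021) and 2.69 (SE 0.19, adjusted p = 3.2e-06), for a total of 3.98 (adjusted p = 8.2e-08). In RPM, olfactory bulb went from 20.5 ± 1.39 at P1, below cortex at 112 ± 18.9 and hippocampus at 145 ± 9.50, to 263 ± 10.2 at P14, above hippocampus at 246 ± 4.42 (SD, n = 3 each) and cortex at 95.4 ± 7.61 (SD, n = 4). None of the olfactory bulb libraries overlapped those of another region at either age. The gap to hippocampus at P14 was narrow, with the nearest libraries at 254 RPM in olfactory bulb and 251 in hippocampus. Its direction depends on the scale. In normalized counts, scaled separately by region, olfactory bulb stood at 746 to 817 and hippocampus at 869 to 898.

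Pax6, a paired homeobox gene of dorsal radial glia and of olfactory bulb neurons, was higher in olfactory bulb than in the other regions at P1, P7 and P14. There it stood at 232, 304 and 315 normalized counts at P1, at 173, 204 and 186 at P7, and at 219, 132 and 226 at P14. It fell by 0.59 from P1 to P14 (log2, SE 0.22, limma adjusted p = 0.044), a call lost with edgeR (-0.49, adjusted p = 0.081) and DESeq2 (-0.48, adjusted p = 0.070), and without P14 replicate 2 (-0.34, adjusted p = 0.121) or either of P1 replicates 2 and 3.

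In cortex Pax6 stood at 81.5, 81.9 and 77.5 normalized counts at P1, at 124, 135 and 111 at P7, and at 108, 51.6, 101 and 109 at P14. All P7 libraries were above all others, and P14 replicate 2 lay far under the rest of its group. The difference of 0.61 between P7 and P1 missed the threshold (log2, SE 0.24, limma adjusted p = 0.071) and passed with edgeR (0.70, adjusted p = 0.037) and DESeq2 (0.69, adjusted p = 0.020). In hippocampus it stood at 178, 169 and 196 at P1, at 125, 165 and 137 at P7, and at 36.5, 159 and 156 at P14, below every P1 library but without a pass (-0.89, SE 0.45, limma adjusted p = 0.122). The difference was carried by P14 replicate 1, without which it was -0.20 (adjusted p = 0.403). It passed without P14 replicate 2 (-1.24, adjusted p = 0.042) and when RPM were tested (-1.47, adjusted p = 0.014). At P1 Pax6 was ordered olfactory bulb (122 ± 20.4 RPM, SD, n = 3), hippocampus (76.0) and cortex (27.3), with no overlap between any pair.

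Meis2, a TALE homeobox gene of the striatum, of interneuron precursors and of olfactory bulb neurons, fell in every region. In olfactory bulb it stood at 4747, 3241 and 3871 normalized counts at P1, at 3706, 2405 and 3876 at P7, and at 731, 635 and 697 at P14. P1 and P7 overlapped, and P14 lay far under both. It fell by 2.24 from P7 to P14 (log2, SE 0.19, limma adjusted p = 9.0e-06) and by 2.51 from P1 to P14 (adjusted p = 1.6e-06).

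In cortex and hippocampus the fall of Meis2 passed already between P1 and P7. Cortical libraries stood at 1980, 1272 and 1139 normalized counts at P1, at 744, 692 and 528 at P7, and at 496, 488, 492 and 463 at P14, and hippocampal ones at 1037, 1773 and 1284, at 388, 347 and 301, and at 329, 265 and 353. No P1 library of either region overlapped a later one. From P1 to P7 Meis2 fell by 1.13 in cortex (log2, SE 0.18, limma adjusted p = 0.00025) and by 1.95 in hippocampus (SE 0.20, adjusted p = 3.5e-05). The further fall of 0.42 in cortex by P14 (SE 0.16, adjusted p = 0.048) did not pass with TMM scaling (-0.23, adjusted p = 0.271), edgeR (-0.29, adjusted p = 0.176) or DESeq2 (-0.27, adjusted p = 0.208), nor, among the 7 libraries of these ages, on leaving out any but P7 replicate 3.

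Dlx1 and Dlx2, the linked homeobox genes of ventral progenitors and GABAergic precursors, were most abundant in olfactory bulb. Dlx1 stood there at 1147, 715 and 829 normalized counts at P1, at 501, 335 and 822 at P7, and at 91.4, 136 and 70.8 at P14. Dlx2 stood at 530, 412 and 488, at 155, 81.5 and 295, and at 17.9, 31.7 and 48.6. The P14 libraries of both genes lay under all earlier ones. From P1 to P14 Dlx1 fell by 3.18 (log2, SE 0.33, limma adjusted p = 1.4e-05) and Dlx2 fell by 3.92 (SE 0.44, adjusted p = 2.5e-05). Dlx2 had already dropped by 1.60 at P7 (SE 0.44, adjusted p = 0.041), which was lost, among the 6 libraries of these ages, on leaving out any but P7 replicate 3, and Dlx1 had not passed at that step.

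Cortical Dlx1 stood at 150, 68.5 and 68.0 normalized counts at P1, at 65.2, 64.9 and 30.8 at P7, and at 5.67, 5.03, 2.21 and 1.56 at P14. Cortical Dlx2 stood at 55.7, 41.8 and 30.0, at 45.6, 37.9 and 9.52, and at 3.03, 0, 1.89 and 0.519. Both genes were near 0 at P14 and well above it in all earlier libraries. From P7 to P14 Dlx1 fell by 3.60 (log2, SE 0.43, limma adjusted p = 1.9e-05) and Dlx2 fell by 3.70 (SE 0.60, adjusted p = 0.00020). Dlx1as, which spans Dlx1, had a similar course, with 128, 61.5 and 77.7 normalized counts at P1 and 0, 0.629, 3.78 and 0 at P14.

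In hippocampus Dlx1 stood at 54.5, 35.6 and 48.5 normalized counts at P1, at 80.9, 8.76 and 16.1 at P7, and at 0 in all 3 libraries at P14. P1 was at least 11.6-fold, and P7 at least 8.88-fold, above the limit that a count of 0 allows (3 reads in each P14 library). The P7 bound was 3.13-fold without P7 replicate 1, the library with 80.9. The loss from P7 to P14 passed (limma adjusted p = 0.00093) but not with quantile normalization (adjusted p = 0.095). Dlx2 stood at 20.3, 18.3 and 7.99 at P1, at 51.3, 6.26 and 3.78 at P7, and at 2.15, 12.1 and 14.3 at P14, with overlap throughout. Its change of -0.85 from P1 to P14 did not pass (adjusted p = 0.474).

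**Figure D2:**
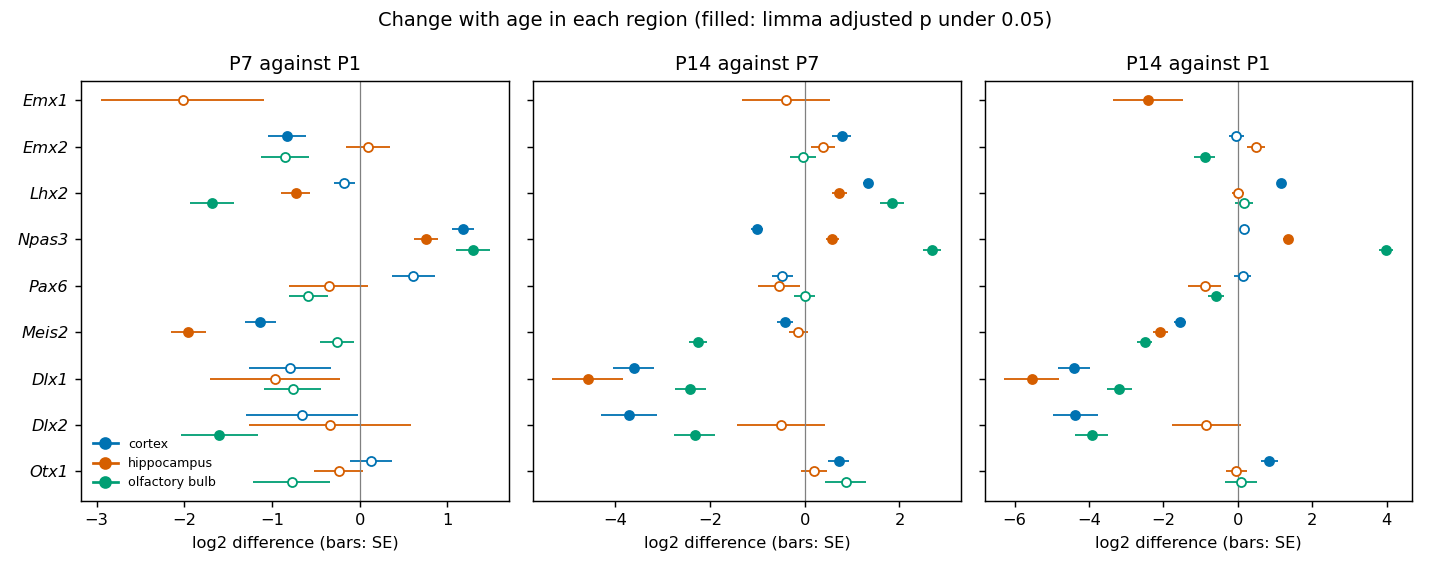
Log2 differences between ages (x axis, log2(normalized count + 1)) are plotted for each factor (y axis) and region, with bars for the SE and filled symbols for limma adjusted p under 0.05. Emx1 was tested in hippocampus only. Meis2, Dlx1 and Dlx2 sit to the left in P14 against P1 (hippocampal Dlx2 open at -0.85), while Npas3 spreads from 0.17 in cortex to 3.98 in olfactory bulb.

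Counted by comparison, the calls among the members are given beside the share of all genes that passed, and no test of the set was made. In cortex 1 of 8 tested members rose and 2 fell from P1 to P7, where 33.7% of all genes passed. From P7 to P14, 3 rose and 4 fell (49.8% of all genes), and from P1 to P14, 2 rose and 3 fell (64.4%). In hippocampus, with all 9 members tested, 1 rose and 2 fell from P1 to P7 (18.1%), 2 rose and 1 fell from P7 to P14 (30.1%), and 1 rose and 3 fell from P1 to P14 (49.5%). In olfactory bulb 1 of 8 rose and 2 fell from P1 to P7 (10.6%), 2 rose and 3 fell from P7 to P14 (47.0%), and 1 rose and 5 fell from P1 to P14 (56.1%). The median member difference of P14 from P1 was 0.05 in cortex beside -0.27 over all genes tested, -0.85 in hippocampus beside -0.29, and -0.74 in olfactory bulb beside -0.24. The 3 comparisons of a region share their libraries and are not independent. Other scalings moved the median of all genes from P1 to P14 by between -0.56 (RPM, hippocampus) and 0.30 (quantile normalization, cortex), which bears on every member value under that size.

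The change from P1 to P14 was then compared between regions in a model over the 28 developmental libraries, using changes within each table. Npas3 differed in all 3 pairs. It rose more in hippocampus than in cortex by 1.17 (log2, limma adjusted p = 0.00025), more in olfactory bulb than in cortex by 3.81 (adjusted p = 2.2e-13), and more in olfactory bulb than in hippocampus by 2.64 (adjusted p = 1.5e-09). Lhx2 changed less in hippocampus (-1.16, adjusted p = 0.0036) and in olfactory bulb (-0.998, adjusted p = 0.0073) than in cortex. Meis2 fell further in olfactory bulb than in cortex (-0.96, adjusted p = 0.013), which did not pass without cortex P1 replicate 3 (-0.80, adjusted p = 0.054). Emx2 had a lower change in olfactory bulb than in hippocampus (-1.38, adjusted p = 0.0080).

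The Dlx genes also differed between regions in this model, on low counts. The change of Dlx2 in hippocampus minus that in cortex was 3.52 (log2, limma adjusted p = 0.020), a call lost without cortex P1 replicate 1 (adjusted p = 0.052) or hippocampus P1 replicate 3 (adjusted p = 0.066). Its change in olfactory bulb minus that in hippocampus was -3.08 (adjusted p = 0.041), a call lost with edgeR (adjusted p = 0.053), with a pseudocount of 0.1 (adjusted p = 0.150) and on leaving out any of 9 single libraries (adjusted p from 0.054 to 0.108). The change of Dlx1 in olfactory bulb minus that in hippocampus was 2.36 (adjusted p = 0.031). Since Dlx1 was at 0 in hippocampus at P14, the size of that value depends on the pseudocount, and it was -0.34 with a pseudocount of 8 (adjusted p = 0.745). The call was also lost with edgeR (adjusted p = 0.114) and on leaving out any of 5 single libraries (adjusted p from 0.059 to 0.073). Over all genes 13.4% passed between hippocampus and cortex, where 3 of 9 members did, 22.5% between olfactory bulb and cortex, with 3 of 9, and 18.1% between olfactory bulb and hippocampus, with 4 of 9.

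Ratios of 2 members within a library do not depend on scaling, but with few reads they depend on depth and on the added 1. They were taken from reads without regard to gene length, so they compare libraries and not the 2 genes. The log2 ratio of Pax6 to Emx2 reads (+ 1) was 1.21 to 5.24 in the 15 olfactory bulb libraries. It was -3.15 to -0.07 in the 18 cortical and 15 hippocampal libraries, so that no olfactory bulb library of any age or genotype overlapped them. At P1 the ratio of Emx2 to Dlx2 averaged 3.13 in cortical, 3.85 in hippocampal and -2.23 in olfactory bulb libraries. At P14 it averaged 7.89, 5.10 and 0.80. Dlx2 held 0 to 8 reads in cortical and 2 to 11 reads in hippocampal libraries at P14, which limits the size of those ratios.

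**Figure D3:**
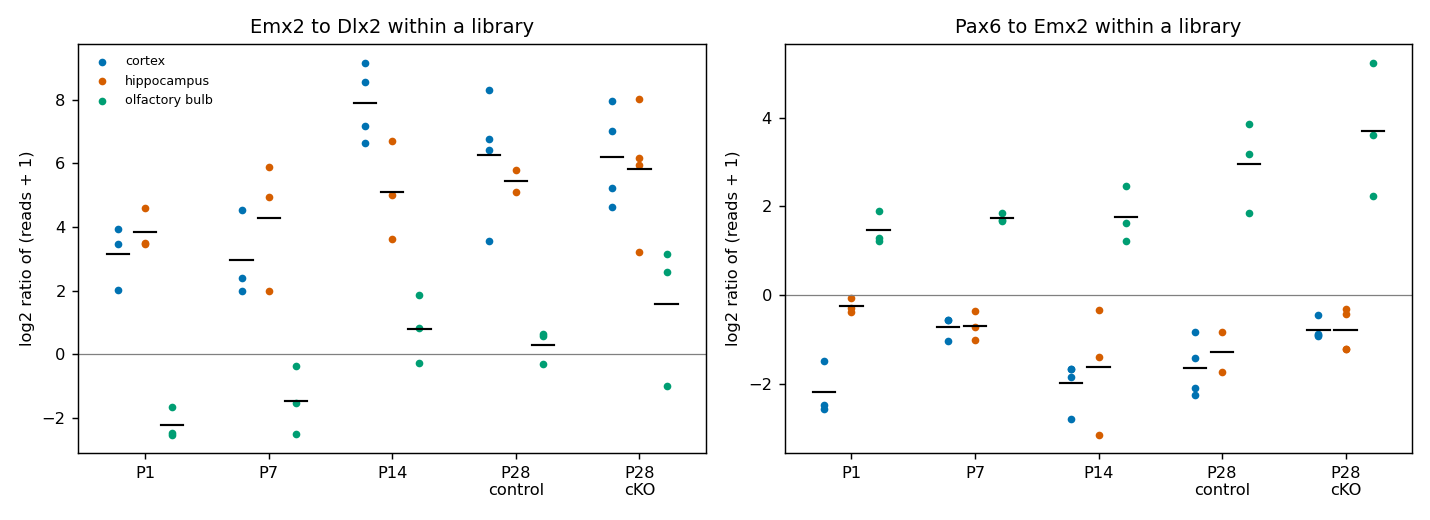
The y axes give the log2 ratio of reads (+ 1) of 2 genes within a library, Emx2 to Dlx2 on the left and Pax6 to Emx2 on the right, by age and genotype on the x axis, with points for libraries and bars for group means. Pax6 to Emx2 is 1.21 or more in every olfactory bulb library and -0.07 or less in every other one.

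Between P1 and P14, markers of GABAergic neurons, excitatory neurons and neuroblasts were lower at the later age in every region. So were Dlx1 and Meis2 in every region and Dlx2 in cortex and olfactory bulb. The summed level of 7 excitatory neuron markers fell from a median of 1012 to 23.0 RPM in cortex. In hippocampus it fell from 1364 to 27.9, and in olfactory bulb from 1183 to 20.7. The fall of markers was thus not particular to GABAergic neurons. Sums of 5 dividing cell markers also fell, and sums of 5 oligodendrocyte markers rose, in every region. In cortex their medians went from 461 to 33.6 RPM and from 28.9 to 5194 RPM. The summed level of 7 GABAergic neuron markers was 851 to 1005 RPM in olfactory bulb at P1 and 94.7 to 150 at P14, 127 to 247 in cortex at P1 and 5.60 to 9.81 at P14, and 86.9 to 139 in hippocampus at P1 and 5.46 to 28.9 at P14. Of the defining markers, Th was at 0 in every cortical library at P14 and every hippocampal library at P1, and Slc32a1 in every hippocampal library at P14. In olfactory bulb at P7 the GABAergic sum was 842 to 1313 RPM (median 1192 against 995 at P1). Dlx2 had dropped by 1.60 at that step, a call lost on leaving out any library of these ages but P7 replicate 3. Neuroblast markers of olfactory bulb went from a median of 12512 RPM at P1 to 5279 at P7. In hippocampus the 4 GABAergic markers tested all fell by P14, and Dlx2 changed by -0.85 (log2, SE 0.93) without a pass. Among single libraries, cortex P1 replicate 1 had the highest GABAergic sum of its group, the highest Meis2 and Dlx1 and the lowest Emx2, and hippocampus P7 replicate 1, the library with 80.9 normalized counts of Dlx1, had 69.4 RPM of GABAergic markers against 52.9 and 78.7. Its neuroblast markers stood at 1309 RPM against 878 and 674. The part of all these markers in the results on Dlx1, Dlx2 and Meis2 was not tested. In bulk samples, fewer cells of a type and less RNA per cell cannot be told apart.

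**Figure D4:**
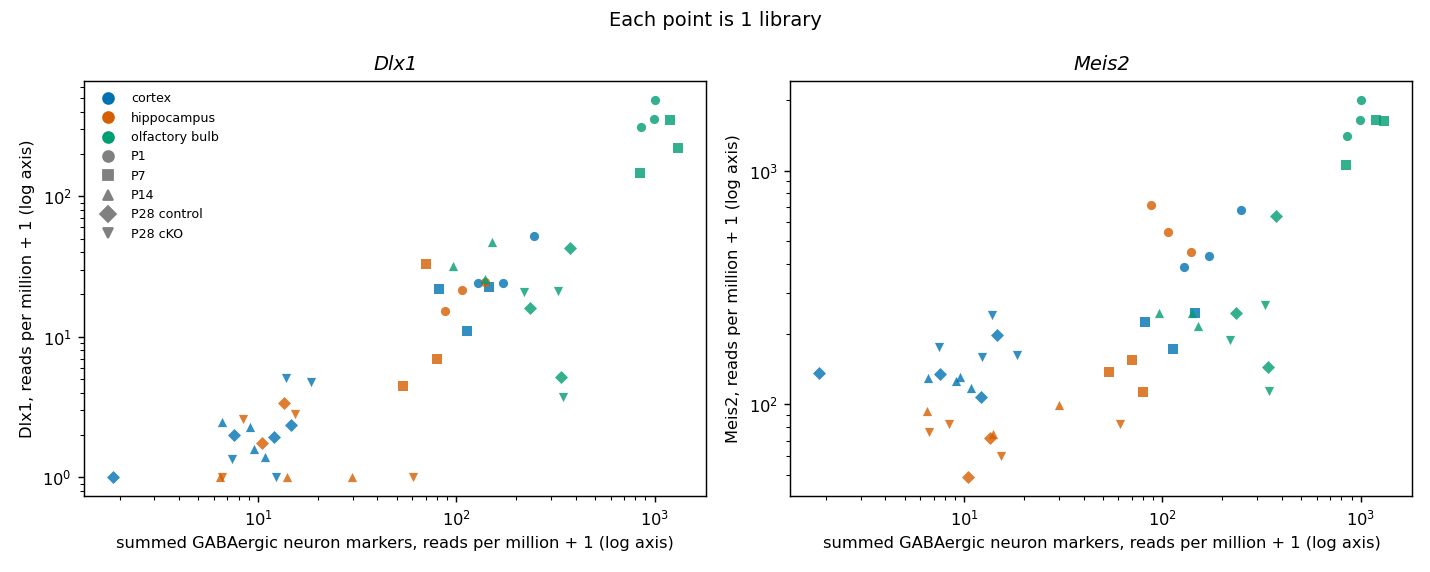
Each point is 1 library, with the summed GABAergic neuron markers on the x axis and Dlx1 (left) or Meis2 (right) on the y axis, all in RPM (+ 1, log axes), coloured by region and shaped by age and genotype. Olfactory bulb libraries at P1 and P7, with GABAergic sums from 842 RPM upwards, lie at the upper right of both panels.

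The wider families were read from lists of related factors, beside which stand all genes from P1 to P14: 64.4% of them passed in cortex (median -0.27), 49.5% in the hippocampal table (median -0.29) and 56.1% in that of olfactory bulb (median -0.24). Of 16 ventral telencephalic and interneuron-lineage factors, all 9 tested in cortex fell from P1 to P14 (median -3.23). In hippocampus 5 of 8 fell (median -1.65), in olfactory bulb 7 of 8 (median -2.53), and none rose in any region. Dlx5, a further gene of the Dlx family, fell by 4.95 in cortex (log2, SE 0.61, limma adjusted p = 9.2e-06), and in olfactory bulb it fell by 4.81 (SE 0.45, adjusted p = 7.3e-06). Sp9, a zinc finger factor of interneuron precursors, fell by 5.51 in cortex (adjusted p = 4.9e-07), and in olfactory bulb it fell by 3.57 (adjusted p = 2.7e-05). Lhx6, which marks interneurons of the medial ganglionic eminence, fell by 5.77 in cortex (adjusted p = 7.7e-06). Dlx6os1, a noncoding transcript of the Dlx5 and Dlx6 locus, differed by -5.13 in cortex and by -2.97 in olfactory bulb, and passed in both.

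The dorsal and pan-telencephalic list went both ways, and its share of calls is to be read against the same 64.4%, 49.5% and 56.1% of all genes. In cortex 3 of its 12 genes rose and 4 fell, with 9 tested. In hippocampus all 12 were tested, and 2 rose and 5 fell. In olfactory bulb 4 rose and 3 fell among 10 tested. Hopx, a small homeodomain protein of radial glia and astrocytes, rose from P1 to P14 by 2.14 in cortex, by 2.17 in hippocampus and by 4.14 in olfactory bulb (log2, limma adjusted p = 2.3e-05, 1.1e-05 and 1.0e-06). Gli3, a mediator of Hedgehog signalling, rose by 1.32 in cortex (adjusted p = 3.5e-08) and by 0.88 in hippocampus (adjusted p = 0.0015, lost at 0.30 when RPM were tested). Nr2f2, a nuclear receptor of caudal and ventral forebrain, fell by 2.17 in cortex (adjusted p = 7.9e-05) and rose by 3.34 in olfactory bulb (adjusted p = 1.6e-05), a difference between regions of 5.51 (adjusted p = 1.3e-09).

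Among 11 TALE partners and close paralogs, 10 were tested in each region. In cortex 8 fell (64.4% of all genes passed), in hippocampus 2 fell (49.5%), and in olfactory bulb 7 fell and 1 rose (56.1%). Pbx3, a TALE cofactor of Meis proteins, differed by -1.75 in cortex (log2, limma adjusted p = 5.7e-06), by -3.31 in olfactory bulb (adjusted p = 2.0e-06) and by -0.18 in hippocampus, where it did not pass. Its change in olfactory bulb minus that in hippocampus was -3.14 (adjusted p = 1.4e-06). Meis1, the paralog of Meis2, differed by -0.98 in cortex and by -2.40 in olfactory bulb, and passed in both. Of 10 factors of the diencephalon, midbrain and hindbrain, at most 1 had enough counts to be tested in a region. That gene in hippocampus was Otx2, the paralog of Otx1 and a gene of choroid plexus, which rose by 2.43 (SE 0.81, adjusted p = 0.026) and did not pass when RPM were tested (1.86, adjusted p = 0.068). Choroid plexus markers of hippocampus had sums of 4.85 to 22.8 RPM at P1 and 6.92 to 354 at P7. At P14 their sums were 1121 to 2387 RPM. Their part in the changes of Otx2 and of the members in hippocampus was not tested.

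At P28 the question was whether the 9 factors differed between Gabbr1 cKO and control. No member passed in any region by limma, edgeR or DESeq2. Over all genes 0.00982% passed by limma in cortex and 0.0% each in hippocampus and olfactory bulb, with 221, 296 and 349 genes at an unadjusted p under 0.05, and DESeq2 called 1, 1 and 22 genes. Gabbr1 itself fell by 3.45 in cortex (log2, SE 0.29, limma adjusted p = 4.4e-05). Its differences of -1.84 in hippocampus (SE 0.39, adjusted p = 0.936) and -1.48 in olfactory bulb (SE 0.33, adjusted p = 0.877) did not pass. A p that misses the threshold here does not show that the members were alike.

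In cortex at P28, Pax6 stood at 76.1, 52.5, 69.1 and 89.2 normalized counts in control and at 119, 141, 142 and 74.8 in cKO. The first 3 cKO libraries lay above every control library, and replicate 4, from the second round of deposit, lay among the controls. The difference was 0.71 (log2, SE 0.29, limma adjusted p = 1.00), and it was 1.07 within the first round (3 cKO and 2 control) and -0.07 within the second (1 and 2). Emx2 differed by -0.15 (SE 0.27), Lhx2 by -0.03 (SE 0.21), Npas3 by 0.05 (SE 0.19), Meis2 by 0.36 (SE 0.22) and Otx1 by 0.21 (SE 0.27). Npas3 was the most even, with 244, 315, 288 and 277 in control and 294, 298, 285 and 282 in cKO.

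In hippocampus at P28, Lhx2 stood at 546 and 740 normalized counts in control and at 1035, 1702, 892 and 540 in cKO, with overlap. It differed by 0.59 (log2, SE 0.42, limma adjusted p = 0.936), and by 0.32 without cKO replicate 2, the library with little Rn45s. The other tested members differed by -0.19 (Emx2) to 0.47 (Otx1), with SE from 0.32 to 0.53. Without that library Pax6 went from 0.30 to -0.08, Emx2 from -0.19 to -0.45, Otx1 from 0.47 to 0.22 and Meis2 from 0.45 to 0.28. Choroid plexus markers varied widely here, with a sum of 22619 to 44432 RPM in control and 2639 to 43992 in cKO, and their part in these values was not tested.

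In olfactory bulb at P28, Meis2 stood at 668, 2010 and 358 normalized counts in control and at 500, 691 and 297 in cKO, with overlap, and Dlx1 at 41.3, 133 and 10.4 against 53.3, 52.8 and 7.24. Control replicate 2 was the highest library for both genes, and it also had 959 RPM of neuroblast markers against 368 and 156 in the other controls. Meis2 differed by -0.74 (log2, SE 0.54) and by -0.06 without that library, and Dlx1 by -0.47 (SE 0.95) and by 0.39 without it. Pax6 differed by 0.50 (SE 0.37) and by 0.10 without it. Lhx2 differed by -0.08 (SE 0.30) and by 0.27 without it, and Otx1 by 0.23 (SE 0.50) and by 0.67 without it. Dlx2 differed by -1.42 (SE 1.00) and by -0.98 without it, Emx2 by -0.21 (SE 0.83) and by -0.07, and Npas3 by -0.15 (SE 0.27) and by -0.17. With all libraries the limma adjusted p of these members was 0.877 to 0.963. Emx1 was at 0 in all 4 cortical control libraries, which allows no more than 3 reads in each, and at most 9.39 normalized counts in any P28 library.

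**Figure D5:**
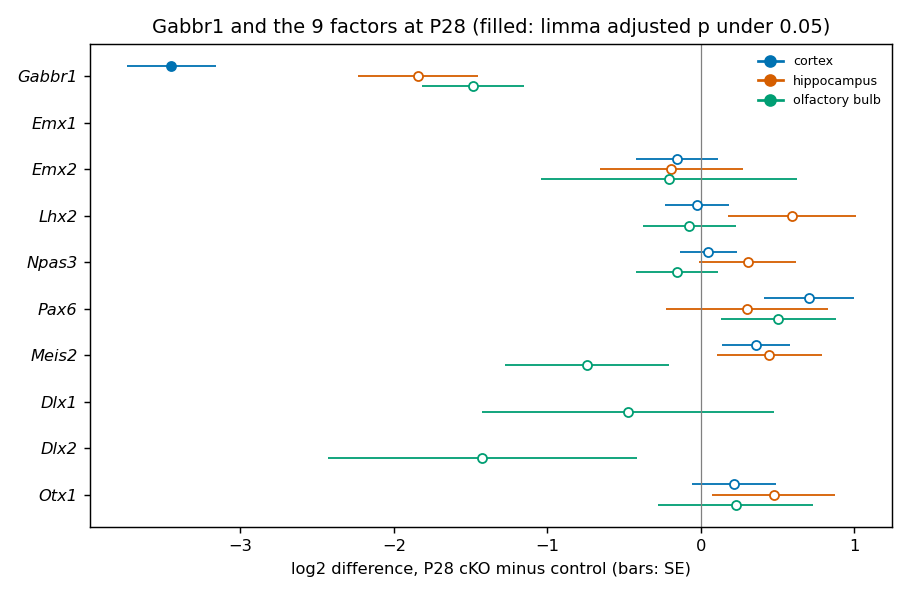
Log2 differences of P28 cKO minus control (x axis, log2(normalized count + 1)) are plotted for Gabbr1 and the members (y axis) by region, with bars for the SE. Gabbr1 in cortex, at -3.45, is the one filled symbol (limma adjusted p under 0.05), and genes with no symbol in a region had too few counts to be tested.

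Across regions at P28, Emx2 was again lowest in olfactory bulb. In control libraries Emx2 averaged 98.9 RPM in cortex and 6.21 in olfactory bulb, and in cKO libraries 89.4 and 7.78. Otx1 averaged 73.6 RPM in hippocampal cKO libraries and 56.5 in hippocampal control libraries, which overlapped. It had averaged 72.6 in hippocampus at P1.

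Likeness of course was measured by Pearson's r of log2(RPM + 1) over the 28 developmental libraries among 8856 genes. These libraries share regions, ages and cell mixtures, so r describes them and carries no test. Dlx1 was most like Dlx6os1 (0.98), Dlx5 (0.97) and Prokr2 (0.97), a receptor used in migration to the olfactory bulb, and Dlx2 was most like Sp9 (0.96), Dlx5 (0.96) and Dlx6os1 (0.94). Meis2 was closest to Smarcd1 (0.95), Nol4 (0.94) and Celf1 (0.94), and Npas3 to Cav2, Cybrd1 and Rhoq (0.94 each). Pax6 was closest to Nufip2 (0.90), Zbtb6 (0.89) and Zfp606 (0.89), Emx2 to Ephb1 (0.88), Crip2 (0.88) and Trak1 (0.84), and Emx1 to Sstr2 (0.85), Fezf2 (0.82) and Kctd15 (0.80). Lhx2 was closest to Ezr, Zfp703 and Ptgfrn (0.81 each), and Otx1 to Ptgfrn (0.80), Thrsp (0.79) and Dusp16 (0.79). Between members, r was 0.93 for Dlx1 and Dlx2, 0.91 for Dlx1 and Meis2, 0.86 for Lhx2 and Otx1, and -0.78 for Npas3 and Meis2.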

How the data were processed

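Total RNA of 48 libraries was sequenced from 500 pg to 1 ng of input with the Trio RNA-seq (Nugen) kit, per the labels' protocols. Per the submitters' processing notes, mm10, STAR 2.5.0a, DESeq2 1.20.0, FastQC and MultiQC were used. The counting program, strand setting and annotation are not given in the sources used here. The deposited tables hold a signal that equals gene read counts divided by 1 factor per library: 100% of values came out whole, within 0.01, in all 48 columns, a weak check for olfactory bulb P28 cKO replicate 2, whose step lies close to 1. Recovered reads served the read totals (1773226 to 15008466 per library) and RPM (reads per 1000000 gene reads without Rn45s). Depth gives counting error only. Symbols that had become dates (27 of them, in 5 of the files) were restored.

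Tests used limma 3.58.1 (R 4.3.3, trend) on log2(value + 1) of genes with a mean of at least 10, with Benjamini-Hochberg adjustment over all genes and a threshold of 0.05, within each region, over 3 ages or both genotypes. A model over the 28 developmental libraries compared regions. Alternatives were pseudocounts 0.1 and 8, other filters, TMM, quantile normalization, edgeR 4.0.16 and DESeq2 1.42.0 on recovered reads, only the 2 ages compared, the round of deposit as a covariate, and each library left out. Testing RPM was added after seeing the data. Fits were tested on simulated data. Members, lists and markers were chosen with earlier results of these data known, so they are not independent evidence. Named genes were the 9 members, Gabbr1, Rn45s, examples from the lists that passed, and the 3 genes most like each member, without predicted genes; some genes of the lists are not reported here by name. Tables were made with pandas 2.3.3 and numpy 2.4.6, and figures with matplotlib 3.10.9.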

Additional observations from a re-analysis of the deposited data

Results flagged for a closer look

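The change from P1 to P14 differed between regions, by limma's test of the difference itself, in 10 member results (log2, adjusted p). For hippocampus minus cortex these were Lhx2 (-1.16, 0.0036), Npas3 (1.17, 0.00025) and Dlx2 (3.52, 0.020). For olfactory bulb minus cortex they were Lhx2 (-0.998, 0.0073), Npas3 (3.81, 2.2e-13) and Meis2 (-0.96, 0.013). For olfactory bulb minus hippocampus they were Emx2 (-1.38, 0.0080), Npas3 (2.64, 1.5e-09), Dlx1 (2.36, 0.031) and Dlx2 (-3.08, 0.041). Of these, the last 2 were lost with edgeR (adjusted p = 0.114 and 0.053) and on leaving out any of 5 and 9 single libraries, and Dlx1 was -0.34 with a pseudocount of 8. Dlx2 in hippocampus minus cortex was lost on leaving out either of 2 libraries, and Meis2 without cortex P1 replicate 3 (-0.80, adjusted p = 0.054).

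Of 35 sets of values tested, each a member in a group of 4 libraries, 3 held a library far from the others by Dixon's criterion. Chance gives about 1 in 20 for normally distributed values, a rate that does not hold for counts near 0. They were Pax6 in cortex P14 replicate 2, at 51.6 normalized counts, Dlx2 in cortex P28 control replicate 4, at 13.1, and Emx1 in cortex P28 cKO replicate 3, at 7.99. The Dlx2 set held 0 to 19 reads. The other libraries of the Emx1 set were at 0, so that any value above 0 would have been flagged.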

How the results depend on the processing

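Of 122 member results tested, 49 passed and 34 of these passed under every alternative in which the gene was tested. A filter that left a gene out of the test was not counted as a loss. The other 15 were lost: 12 under at least 1 alternative other than leaving out a library and 10 on leaving out a library, with 7 in both counts. Of the results that did not pass, 17 passed and 40 changed sign under at least 1 alternative. The number of members called went from 5 to 3 for cortex P14 against P1 and from 4 to 2 for hippocampus P14 against P1 with a mean of at least 100, from 3 to 0 for hippocampus P14 against P7 with quantile normalization, from 3 to 5 for olfactory bulb P7 against P1 with only the 2 ages compared, and from 4 to 2 for olfactory bulb minus hippocampus with edgeR. The drops with a mean of at least 100 came from members under that mean, which were not tested there. Members that did not overlap between hippocampus and cortex at P7 went from 5 to 2 with values as deposited. Signs turned in a result that passed on either side for Lhx2 in hippocampus P14 against P1 (-0.58 with RPM, adjusted p = 0.0051, and -0.40 with quantile normalization, adjusted p = 0.035), for Dlx1 in olfactory bulb minus hippocampus with a pseudocount of 8 (-0.34), and for Dlx5 in olfactory bulb minus cortex with a pseudocount of 8 (-1.82 against 0.14). The cause was not tested.

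On leaving out 1 library, members called ranged from 5 to 6 for cortex P14 against P7 and P14 against P1, from 3 to 5 for hippocampus P14 against P1, from 4 to 6 for olfactory bulb P14 against P1, from 2 to 4 for olfactory bulb P7 against P1, and from 2 to 4 for each difference between regions. It stayed at 0 at P28. No paired analysis was possible because the labels give no replicate numbers shared between groups; numbers follow the order of deposit.

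Counts over all genes moved by more than 1.5 times in these cases. With a mean of at least 100, 3295 genes passed in place of 5893 (cortex P14 against P7), 3986 in place of 7608 (cortex P14 against P1), 2067 and 3256 in place of 3489 and 5732 (the same 2 comparisons in hippocampus), and 3007 and 3413 in place of 5396 and 6449 (in olfactory bulb). With only the 2 ages compared, P7 against P1 gave 4312 in place of 2092 in hippocampus and 3565 in place of 1214 in olfactory bulb, where DESeq2 gave 2260 and leaving out a library 517 to 663. Leaving out a library gave 1356 for hippocampus P7 against P1 and 2046 and 2278 for P14 against P7. The share of calls that were higher also moved with scaling. For cortex P14 against P1 it was 37.4%, but 51.0% with TMM and 21.9% with RPM, for hippocampus 42.4% and 21.6%, and for olfactory bulb 44.1% and 32.4%. Low counts limit Emx1, hippocampal and cortical Dlx1 and Dlx2.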
